A study of Mus musculus with 32 samples.

Results

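The comparison followed MΦs of mouse islets from the end of 1 week of VEGF-A induction to 1 week after its withdrawal (WD). Its members were 6 of the 32 samples of the series, namely the 2 CD11b+ MΦ samples labelled 1wk Dox (replicates 4 and 5) and the 4 labelled 1wk WD (replicates 1 to 4), chosen by sample title and library number. All animals carried MIP-GFP; RIP-rtTA; TetO-VEGF-A on a C57BL/6 background. The rat insulin promoter (RIP) places the doxycycline-dependent activator rtTA in β cells, where doxycycline (Dox) then switches on human VEGF-A, and GFP under the mouse insulin promoter (MIP) marks the β cells. The 1wk Dox mice drank Dox for 1 week, the 1wk WD mice drank it for 1 week and were then kept without it for 1 week, and No Dox mice of the same genotype, also represented by 4 MΦ samples, had none. Mice were 8 to 16 weeks old when experiments began, and islets of several mice were pooled for each sample, so a sample is a pool and not an animal. The other MΦ samples that the study used at 1wk Dox belong to another series and were not analysed here.

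Islets hold resident MΦs, and circulating monocytes can enter the islet and mature into MΦs when the tissue is injured. MΦs clear dying cells through scavenger and complement receptors, break down what they engulf in lysosomes, recycle the iron of heme with heme oxygenase, store and release lipid, present peptides on MHC class II, and signal through cytokines and chemokines. They can also divide in place, which is visible as transcripts of the DNA replication and mitosis machinery. The question of the comparison is which of these transcripts differ between MΦs present while VEGF-A is high and β cells are being lost and MΦs present once the stimulus is gone.

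All 19 tested genes of a MΦ identity list were above the lowest score in each of the 6 libraries. The same held in some libraries of sorted endothelial cells (ECs) and β cells. Summed over the list, the 6 MΦ libraries scored 576769 to 745869, against 5124 to 14924 in the EC and β cell libraries of the series. *Csf1r*, the receptor for the MΦ growth factor CSF1, scored 88375 and 78271 in 1wk Dox libraries against 67905, 69938, 64649, and 70526 in those of 1wk WD, and *Mrc1*, the mannose receptor, scored 78647 and 69073 in 1wk Dox libraries against 70893, 71880, 70507, and 79570 in those of 1wk WD. The *Csf1r* groups did not overlap, yet the difference of -0.29 ± 0.21 (log2 fold change ± SE) did not pass the test (limma, adjusted p = 0.733). *Mrc1* differed by -0.01 ± 0.19 and by 0.24 after quantile normalization, with no call either way. Scores are the authors' normalized expression values, whose lowest value is 1, and library sums of scores in the 6 samples ran from 32756575 to 34570556. Read depth behind a score is unknown. The 1wk Dox libraries bear the numbers 57 and 58 and those of 1wk WD the numbers 43 to 46, so library number and time point cannot be told apart.

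Of 14575 genes tested, 13 (0.0892%) were called, that is, they changed at least 2-fold at a Benjamini-Hochberg adjusted p under 0.05 in limma. There were 10 genes (0.0686%) that fell at 1wk WD and 3 (0.0206%) that rose. The genes that fell were *Mmp12*, *Snx22*, *Olfr111*, *Stmn1*, *Hmox1*, *Gclm*, *Lgals3*, *Ccr1*, *Clcf1*, and *Lpl*, and those that rose were *Eif4a2*, *Srsf5*, and *March6*. Without the adjustment, 159 genes (1.09%) were lower and 114 (0.782%) higher when changed at least 2-fold with p under 0.05. After quantile normalization these counts were 149 lower and 201 higher, so which direction held more genes depended on the scaling. Groups did not overlap for 2469 genes (16.9%) that were lower and 1999 (13.7%) that were higher at 1wk WD. Over all genes tested the median log2 fold change was -0.03. In the same fit 350 genes (2.4%) were called for 1wk Dox over No Dox, and the corresponding number for 1wk WD was 94 (0.645%). These comparisons share samples with each other. Leaving out either replicate 4 or replicate 5 at 1wk Dox, so that 1 library stood for the group, left 0 called genes in limma, with 188 and 272 genes past a fold change of 2 at an unadjusted p under 0.05. Leaving out replicate 2 or 3 at 1wk WD also left 0 (240 and 274 at the unadjusted p), and leaving out replicate 1 or 4 left 4 and 8. The log2 fold changes of the called genes kept their direction in each of these fits, for example -2.16 to -1.77 for *Mmp12* and 1.39 to 1.52 for *Eif4a2*. Without No Dox replicate 4 the count was 5, and without No Dox replicate 3 it was 30. A fit of the 6 compared samples alone called 79 genes, among them all 13, and a fit with no trend of the spread on expression called 0, with 315 at the unadjusted p. The minimum score for testing was a mean of 20 in either group, and 323 tested genes reached it only at 1wk WD and 471 only at 1wk Dox, so that genes of these kinds entered through the group where they were high.

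**Figure D1:**
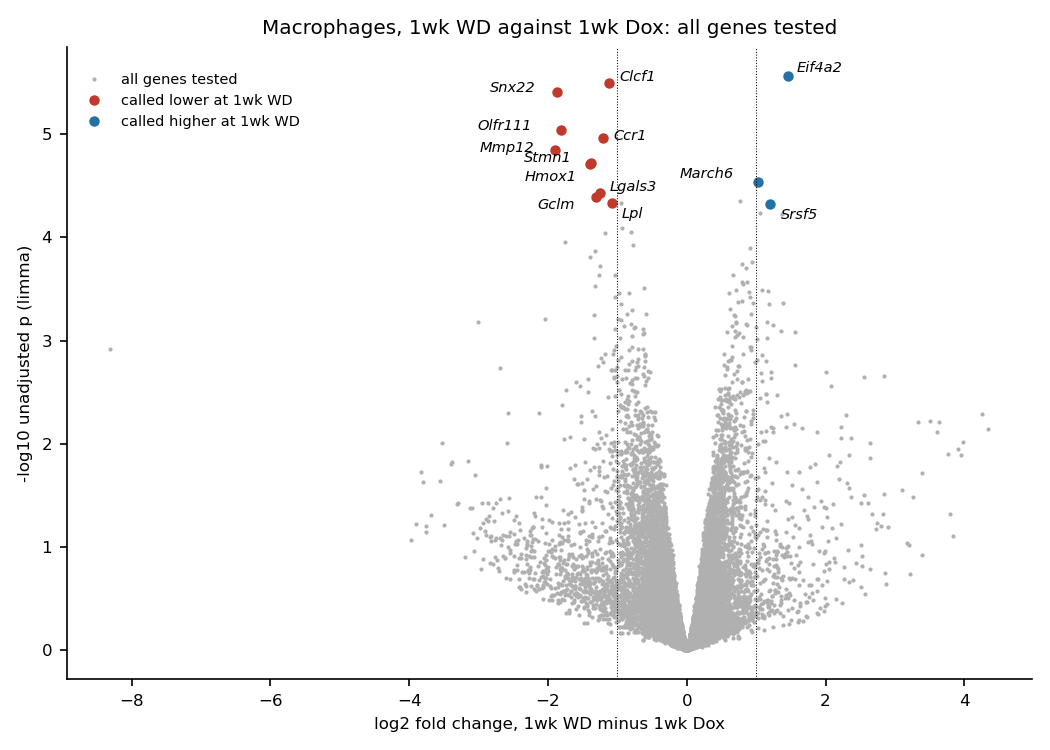
Log2 fold change (1wk WD minus 1wk Dox, x axis) against -log10 of the unadjusted limma p (y axis) for the 14575 genes tested in MΦs. Grey points are all genes, red points the 10 called lower and blue points the 3 called higher at 1wk WD, and dotted lines mark a fold change of 2. The genes with the largest fold changes lie lower on the y axis than the called genes.

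The called falls included an elastase, a lipase, and a lectin. *Mmp12*, MΦ elastase, scored 12447 and 11514 in 1wk Dox libraries against 2624, 2983, 2433, and 5501 in those of 1wk WD. The replicate with 5501 was the highest of its group and still below both 1wk Dox libraries, and the fall was 1.90 ± 0.28 on the log2 scale (limma, adjusted p = 0.0345). No Dox MΦs scored 6070 to 9475, so 1wk WD lay below the untreated level too, with a called difference of -1.19 (adjusted p = 0.0307). *Mmp12* overlaps *Mmp1b* on the opposite strand, which scored 33 and 23 in 1wk Dox libraries against 29, 5, 4, and 5 in those of 1wk WD (adjusted p = 0.721). *Mmp12* was the 1 called gene among 30 tested genes of a matrix remodeling list, against 0.0686% of all genes called lower. In that list 7 (23.3%) were non-overlapping and lower and 3 higher, against 16.9% and 13.7% of all genes, with a median of -0.07 that was -0.12 without 1wk WD replicate 2 and 0.01 without replicate 1. The gene lists of this report were chosen with earlier results of these data known, so the share of a list is a description. *Lpl*, lipoprotein lipase, which frees fatty acids from lipoproteins, scored 9151 and 8982 in 1wk Dox libraries against 3849, 4498, 3510, and 5531 in those of 1wk WD (log2 fold change -1.08 ± 0.18, adjusted p = 0.0467). All 4 *Lpl* scores at 1wk WD exceeded those of No Dox, 2776 to 3481. *Lgals3*, galectin-3, a lectin abundant in phagocytic MΦs, scored 11556 and 9213 in 1wk Dox libraries against 3218, 5231, 4271, and 4856 in those of 1wk WD (log2 fold change -1.26 ± 0.20, adjusted p = 0.0467), and the 1wk WD scores overlapped those of No Dox, 4169 to 5637.

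*Mmp12*, *Lpl*, and *Lgals3* belong to a list of 18 genes typical of lipid-associated MΦs, all tested, so that 3 of 18 were called lower, against 0.0686% of all genes. Like the other gene lists, this list was chosen with earlier results of these data known, so the share is a description. Its median log2 fold change was -0.59, against -0.03 over all genes, and 11 members (61.1%) had groups that did not overlap with 1wk WD lower, against 16.9% of all genes, while no member did so in the other direction. The summed score of the list overlapped between groups, at 209116 and 179445 in 1wk Dox libraries against 167199, 203546, 180571, and 184258 in those of 1wk WD. *Gpnmb*, a glycoprotein of lysosome-rich MΦs, scored 525 and 515 in 1wk Dox libraries against 29, 313, 171, and 322 in those of 1wk WD, and *Spp1*, osteopontin, scored 519 and 1424 against 162, 422, 353, and 363. Neither passed the test, with differences of -1.78 ± 0.80 (adjusted p = 0.477) and -1.49 ± 0.60 (adjusted p = 0.419). Single libraries weighed on both, since *Gpnmb* differed by -1.01 without 1wk WD replicate 1 and *Spp1* by -0.76 without 1wk Dox replicate 5. *Apoe*, the lipid carrier apolipoprotein E, overlapped between groups, with 98594 and 77237 in 1wk Dox libraries against 97213 to 126151 in those of 1wk WD.

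Heme breakdown and antioxidant genes formed a second set. *Hmox1*, heme oxygenase 1, which opens the heme ring and releases its iron, scored 15859 and 11589 in 1wk Dox libraries against 4840, 6094, 4163, and 6101 in those of 1wk WD, a fall of 1.37 ± 0.21 on the log2 scale (limma, adjusted p = 0.0357). All 4 scores at 1wk WD stood above the No Dox range of 2466 to 3422. *Gclm*, the modifier subunit of the enzyme that limits glutathione synthesis, scored 3345 and 3083 in 1wk Dox libraries against 1134, 1396, 1058, and 1687 in those of 1wk WD (log2 fold change -1.31 ± 0.21, adjusted p = 0.0467), and its 1wk WD scores overlapped the No Dox range of 1131 to 1672. *Prdx1*, peroxiredoxin 1, which reduces peroxides, scored 14055 and 10012 against 4717, 6728, 4851, and 7341. Its difference of -1.03 ± 0.23 did not pass (adjusted p = 0.145), nor did that of *Nqo1*, a quinone reductase, at low scores of 32 and 37 against 2, 12, 15, and 29 (-1.60 ± 1.16, adjusted p = 0.729, and -0.94 without 1wk WD replicate 1). Of 23 tested members of the heme, iron, and redox list, 2 were called lower, against 0.0686% of all genes. Groups did not overlap for 9 (39.1%) that were lower and 1 that was higher at 1wk WD, against 16.9% and 13.7% of all genes. *Nqo1* is among the 9 and reached the minimum only at 1wk Dox. The median was -0.27, and -0.46 without 1wk WD replicate 4.

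*Hmox1* and *Gclm* are textbook targets of the transcription factor NRF2, which binds the antioxidant response element, and *Mmp12* belongs to a protease family known for AP-1 sites near its start sites. RefSeq promoters (GRCm38.p6, 250 bases before each start site) were matched by symbol for 8 of the 13 called genes, *Mmp12*, *Snx22*, *Olfr111*, *Gclm*, *Lgals3*, *Ccr1*, *Srsf5*, and *Eif4a2*, and not for *Stmn1*, *Hmox1*, *Clcf1*, *Lpl*, and *March6*. The core letters of the antioxidant response element, TGACNNNGC on either strand, were in a promoter of *Gclm* and of *Snx22*, and in 10.2% of 32851 RefSeq promoters. The AP-1 letters, TGANTCA on either strand, were in a promoter of *Mmp12* and in 6.75% of all. These percentages count promoters, whereas a called gene was counted when any of its listed promoters matched, so they are not in the same unit. The following sequences are shown because they hold those letters, given in capitals, 5′ to 3′ on the strand of the gene. They lie at chr3:122245307-122245556 (plus strand), chr9:66069760-66070009 (minus strand), and chr9:7347124-7347373 (plus strand, the second of its listed starts).
*Gclm*: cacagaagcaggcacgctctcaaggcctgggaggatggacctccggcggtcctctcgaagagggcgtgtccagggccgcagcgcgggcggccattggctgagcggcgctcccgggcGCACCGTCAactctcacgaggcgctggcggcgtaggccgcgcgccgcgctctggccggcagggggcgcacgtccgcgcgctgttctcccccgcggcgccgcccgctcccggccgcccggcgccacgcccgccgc
*Snx22*: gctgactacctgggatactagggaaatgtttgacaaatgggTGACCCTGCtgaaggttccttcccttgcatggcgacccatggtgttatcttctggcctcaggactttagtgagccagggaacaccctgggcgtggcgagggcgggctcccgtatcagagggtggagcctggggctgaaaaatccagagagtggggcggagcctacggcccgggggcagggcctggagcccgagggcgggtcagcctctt
*Mmp12*: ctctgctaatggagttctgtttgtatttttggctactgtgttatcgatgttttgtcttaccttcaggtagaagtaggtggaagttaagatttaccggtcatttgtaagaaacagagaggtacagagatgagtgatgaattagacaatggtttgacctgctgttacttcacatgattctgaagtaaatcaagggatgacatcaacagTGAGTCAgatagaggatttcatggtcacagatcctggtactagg
A match of letters is a description of the sequence, and binding was not measured.

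Signalling genes were represented among the falls by a chemokine receptor and a cytokine. *Ccr1*, a receptor for CCL3 and CCL5 on myeloid cells, scored 4222 and 3984 in 1wk Dox libraries against 1756, 1821, 1552, and 2043 in those of 1wk WD (log2 fold change -1.20 ± 0.17, limma, adjusted p = 0.0317). *Clcf1*, a cytokine of the IL-6 family, scored 6113 and 5788 against 2564, 2740, 2543, and 3185 (-1.11 ± 0.14, adjusted p = 0.0191). Both genes were lower in every 1wk WD library than in every No Dox library, whose scores were 2333 to 3300 for *Ccr1* and 3683 to 4426 for *Clcf1*. Those differences from No Dox, -0.57 for each gene, were below a fold change of 2. *Ccr1* was the 1 called gene of 18 tested chemokine receptors, against 0.0686% of all genes called lower, and the list as a whole was split. Groups did not overlap for 3 (16.7%) that were lower and 3 that were higher at 1wk WD, against 16.9% and 13.7% of all genes. The median was 0.06, with -0.04 without 1wk Dox replicate 5 and 0.14 without replicate 4. *Cxcr2*, a receptor for neutrophil-attracting chemokines, scored 493 and 489 in 1wk Dox libraries against 1774, 955, 771, and 848 in those of 1wk WD (1.06 ± 0.30, adjusted p = 0.237), and *Ccr6*, the receptor for CCL20, scored 42 and 49 against 108, 146, 147, and 100 (1.42 ± 0.44, adjusted p = 0.286).

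Other chemokines and cytokines did not pass the test. *Ccl2*, the monocyte attractant, scored 9051 and 5726 in 1wk Dox libraries against 4484, 5700, 4229, and 4368 in those of 1wk WD, a difference of -0.63 ± 0.19 (adjusted p = 0.283, and -0.30 without 1wk Dox replicate 4), with groups just short of overlap and both above No Dox (2890 to 3602). *Ccl7*, a related attractant, overlapped between groups (5712 and 2456 against 3331, 2545, 1870, and 2450). Its 1wk WD scores were all above the No Dox range of 705 to 871, with a called log2 difference from No Dox of 1.66 (adjusted p = 0.00908). *Ccr2*, the receptor for both, overlapped as well, at 17470 and 14586 against 11621 to 23335. *Cxcl1*, a neutrophil attractant, scored 5148 and 2366 against 1439, 2530, 956, and 978, and *Tnf* scored 18758 and 10721 against 7085, 11975, 8423, and 6575, each with 1 of the 4 1wk WD libraries above 1 of the 1wk Dox libraries. Replicate 4 at 1wk Dox was the higher of its group for *Ccl2*, *Ccl7*, *Cxcl1*, and *Tnf*. Of 25 tested chemokines 6 (24.0%) had non-overlapping groups with 1wk WD lower and 1 with 1wk WD higher (median -0.21), against 16.9% and 13.7% of all genes, and of 17 tested inflammatory cytokines the counts were 2 and 1 (median -0.32). Both medians moved with the 1wk Dox libraries. They were -0.03 and -0.08 without replicate 4, and -0.37 and -0.64 without replicate 5.

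Lists of classical (M1) and alternative (M2) activation showed no call. For 17 tested M1 genes the median log2 fold change was -0.11, with 3 non-overlapping genes lower (17.6%) and 2 higher (11.8%), and for 21 tested M2 genes it was -0.12, with 5 lower (23.8%) and 3 higher (14.3%). The shares over all genes were 16.9% and 13.7%. Without 1wk Dox replicate 4 the medians were 0.01 and -0.03, and without 1wk WD replicate 2 that of the M1 list was -0.27. *Il12b*, a subunit of IL-12 and IL-23, overlapped at 2850 and 1677 against 1230, 1977, 1355, and 1921. *Il1a*, interleukin-1α, scored 2323 and 898 against 343, 880, 525, and 680, a difference of -1.33 ± 0.48 (adjusted p = 0.373) that was -0.65 without 1wk Dox replicate 4 and -2.02 without replicate 5. *Ptgs1*, the constitutive cyclooxygenase, scored 6197 and 7327 against 5728, 5124, 5228, and 5994, all above the No Dox range of 1934 to 2857, and its difference from 1wk Dox was -0.29 ± 0.17 (adjusted p = 0.622, and -0.17 without 1wk Dox replicate 5). *Retnla*, an M2 marker, scored 49 and 60 against 41, 108, 177, and 421, and varied more within 1wk WD than between the groups. *Chi3l3*, a chitinase-like M2 marker, scored 752 and 1315 against 298, 359, 226, and 304, and its difference of -1.76 ± 0.32 did not pass the test (adjusted p = 0.0777).

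Among the other called falls, *Stmn1*, stathmin, a microtubule regulator high in dividing cells, scored 1975 and 1450 in 1wk Dox libraries against 557, 629, 736, and 674 in those of 1wk WD (log2 fold change -1.39 ± 0.21, limma, adjusted p = 0.0357). Its 1wk WD scores lay a little above No Dox (444 to 550). *Snx22*, a sorting nexin that binds membrane phosphoinositides, scored 1222 and 999 against 245, 337, 292, and 339 (-1.87 ± 0.24, adjusted p = 0.0191). *Snx22* overlaps *Ppib* on the opposite strand in GENCODE M1, and *Ppib* scored 1251 and 1002 in 1wk Dox libraries against 1361, 2917, 3218, and 3032 in those of 1wk WD (limma, adjusted p = 0.564). Whether reads of *Ppib* entered the *Snx22* score was not tested. *Olfr111*, annotated as an olfactory receptor, scored 3286 and 3402 against 1264, 835, 815, and 942 (-1.82 ± 0.25, adjusted p = 0.0317) and was listed at 1 in the 1wk Dox EC library. Its neighbours *Olfr112* (1230 and 1207 against 280, 249, 295, and 372) and *Olfr113* (273 and 325 against 64, 23, 28, and 41) had the same order without passing the test (adjusted p = 0.144 for each). Olfactory receptors are close paralogs, so reads could have been shared among the 3 genes, and the value of each is uncertain. On mm9 they lie at chr17:37666902-37667942 (plus strand), chr17:37700173-37704039 (minus strand), and chr17:37711399-37712393 (minus strand).

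The 3 genes that rose act in RNA and protein handling. *Eif4a2*, an RNA helicase of the translation initiation complex, scored 3082 and 3078 in 1wk Dox libraries against 8286, 9866, 8439, and 7547 in those of 1wk WD (log2 fold change 1.46 ± 0.18, limma, adjusted p = 0.0191). *Srsf5*, a splicing factor, scored 5186 and 5405 against 12070, 15470, 12462, and 9546 (1.21 ± 0.20, adjusted p = 0.0467). *March6*, a ubiquitin ligase of the endoplasmic reticulum, scored 2148 and 2290 against 4247, 5082, 4573, and 4289 (1.03 ± 0.16, adjusted p = 0.0467). In each case the 1wk Dox libraries lay below every No Dox library, and for *Eif4a2* and *Srsf5* the 1wk WD scores overlapped No Dox. *Eif4a2* hosts small nucleolar RNAs in its introns and overlaps *Rfc4* on the opposite strand (664 and 643 against 424, 390, 495, and 523, adjusted p = 0.701), and whether the counting used strand is not stated.

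**Figure D2:**
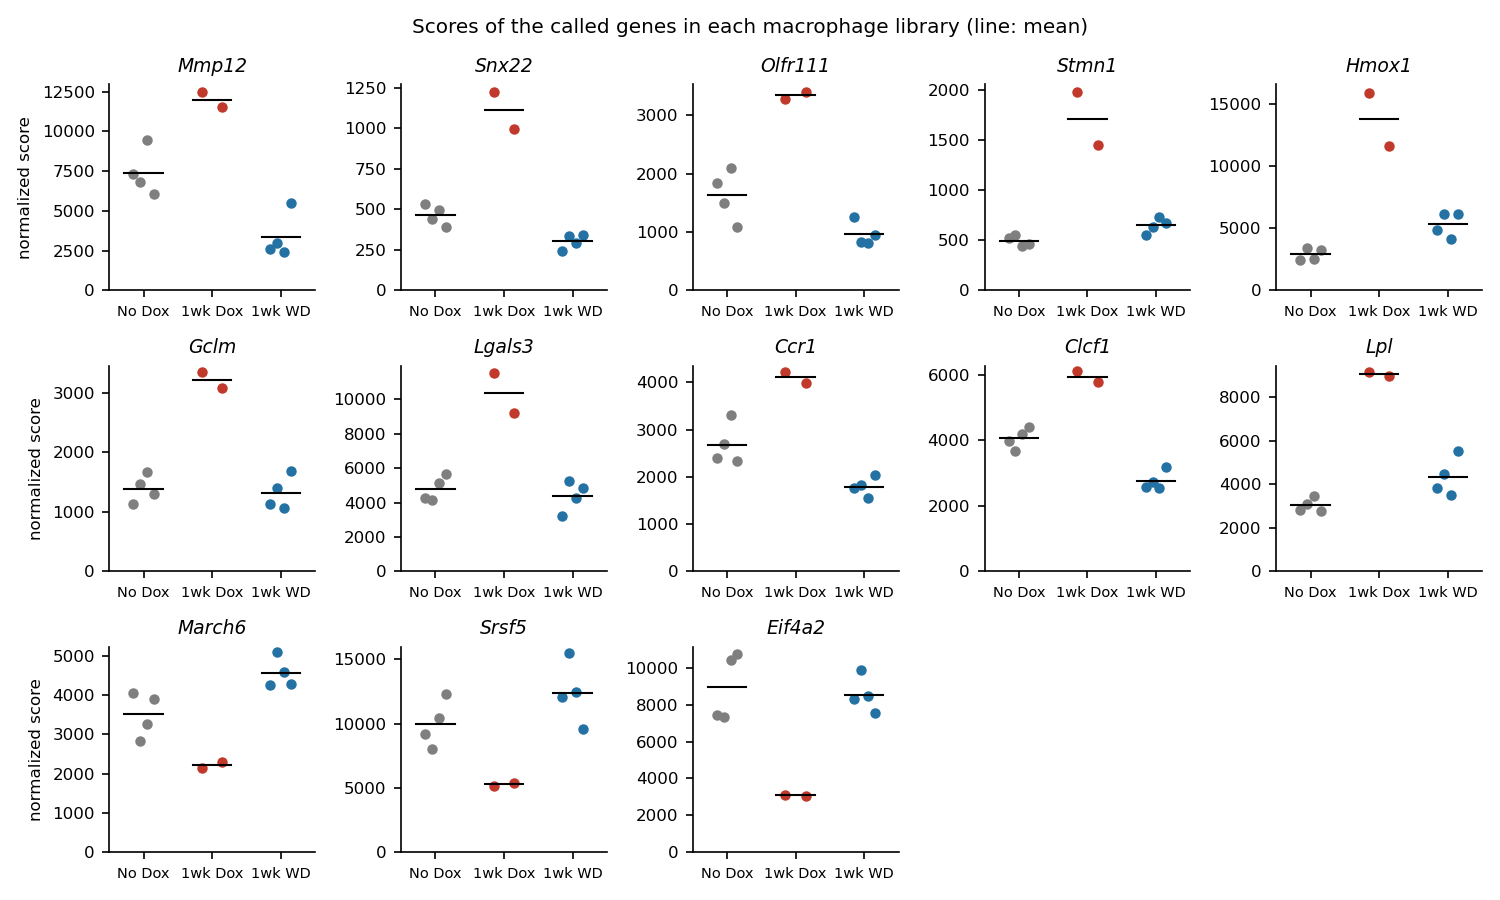
Normalized score (y axis, linear from 0) of the 13 called genes in each MΦ library, with 4 libraries of No Dox, 2 of 1wk Dox, and 4 of 1wk WD. Points are libraries and lines are group means. The 1wk Dox libraries lie above every No Dox library for the 10 genes that fell at 1wk WD and below every No Dox library for the 3 that rose.

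Set against No Dox, the 10 genes that fell were at their highest at 1wk Dox, where all 10 stood above every No Dox library and 7 were called. At 1wk WD, 3 of the 10 (*Stmn1*, *Hmox1*, and *Lpl*) still lay above every No Dox library, 3 (*Olfr111*, *Gclm*, and *Lgals3*) overlapped No Dox, and 4 (*Mmp12*, *Snx22*, *Ccr1*, and *Clcf1*) lay below it. *Mmp12* was the 1 gene of the 13 called at 1wk WD against No Dox. The 1wk Dox libraries enter both contrasts, so the position of No Dox is given as a description.

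Transcripts of cell division were lower at 1wk WD as a group, although no member was called. All 34 tested genes of a mitosis (G2/M) list had a lower mean at 1wk WD, the list had a median log2 difference of -0.86, and in 24 (70.6%) the groups did not overlap, against 16.9% of all genes. Summed over the list, the 1wk Dox libraries scored 57417 and 41673, those of 1wk WD 25379, 29144, 29363, and 34003, and those of No Dox 19861 to 32655. The sums at 1wk WD were thus below both 1wk Dox libraries and within or just above the No Dox range. *Plk1*, a mitotic kinase, scored 243 and 120 against 67, 57, 65, and 101, *Cdk1*, the kinase of mitotic entry, scored 574 and 372 against 220, 132, 206, and 262, and *Ccnb1*, its cyclin, scored 324 and 168 against 109, 123, 107, and 123. *Mki67*, a proliferation marker chosen after its values were seen, scored 21479 and 16200 against 7916, 10400, 10497, and 12226 (-0.88 ± 0.26, adjusted p = 0.268). Replicate 4 at 1wk Dox was the higher of its group for all 4 of these genes, and leaving it out moved the list median to -0.53.

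A DNA replication (G1/S) list of 31 tested genes had a median of -0.72, with 18 (58.1%) non-overlapping and lower at 1wk WD, against 16.9% of all genes, and 0 in the other direction. The median was -0.45 without 1wk Dox replicate 4. *Mcm2*, a subunit of the replicative helicase, scored 1157 and 888 against 481, 367, 342, and 430 (-1.33 ± 0.31, adjusted p = 0.15), *Pole*, a replicative polymerase, scored 1344 and 1100 against 439, 450, 544, and 666, and *Uhrf1*, which keeps DNA methylation through replication, scored 802 and 729 against 585, 195, 193, and 357. The list's summed score was 36281 and 30424 at 1wk Dox, 23355 to 25565 at 1wk WD, and 22754 to 25939 at No Dox. *Rad51ap1*, a DNA repair gene of dividing cells, was among the 10 non-overlapping genes that differed most in this direction (253 and 179 against 40, 27, 51, and 93).

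EC markers moved with this result. In sorted ECs the summed mitosis list was 51709 in the single 1wk Dox library and 10225 on average at 1wk WD. Of 15 EC markers 14 were tested and all 14 had a lower mean at 1wk WD (median log2 fold change -1.10), with 6 (42.9%) non-overlapping, against 16.9% of all genes. The median was -0.67 without 1wk Dox replicate 4 and -1.63 without replicate 5. Among them *Emcn* scored 686 and 370 against 5, 30, 93, and 319, *Robo4* scored 258 and 144 against 1, 14, 63, and 135, and *Plvap* scored 403 and 219 against 18, 42, 51, and 144. The summed EC markers came to 6458 and 5135 in 1wk Dox libraries against 3257 to 4502 in those of 1wk WD, which are 0.77% and 0.61%, and 0.58% to 0.81%, of their sums in the sorted ECs of the same time points. The part of ECs in the cell division values was not tested. In bulk samples, fewer dividing cells and less of these RNAs per cell cannot be told apart.

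**Figure D3:**
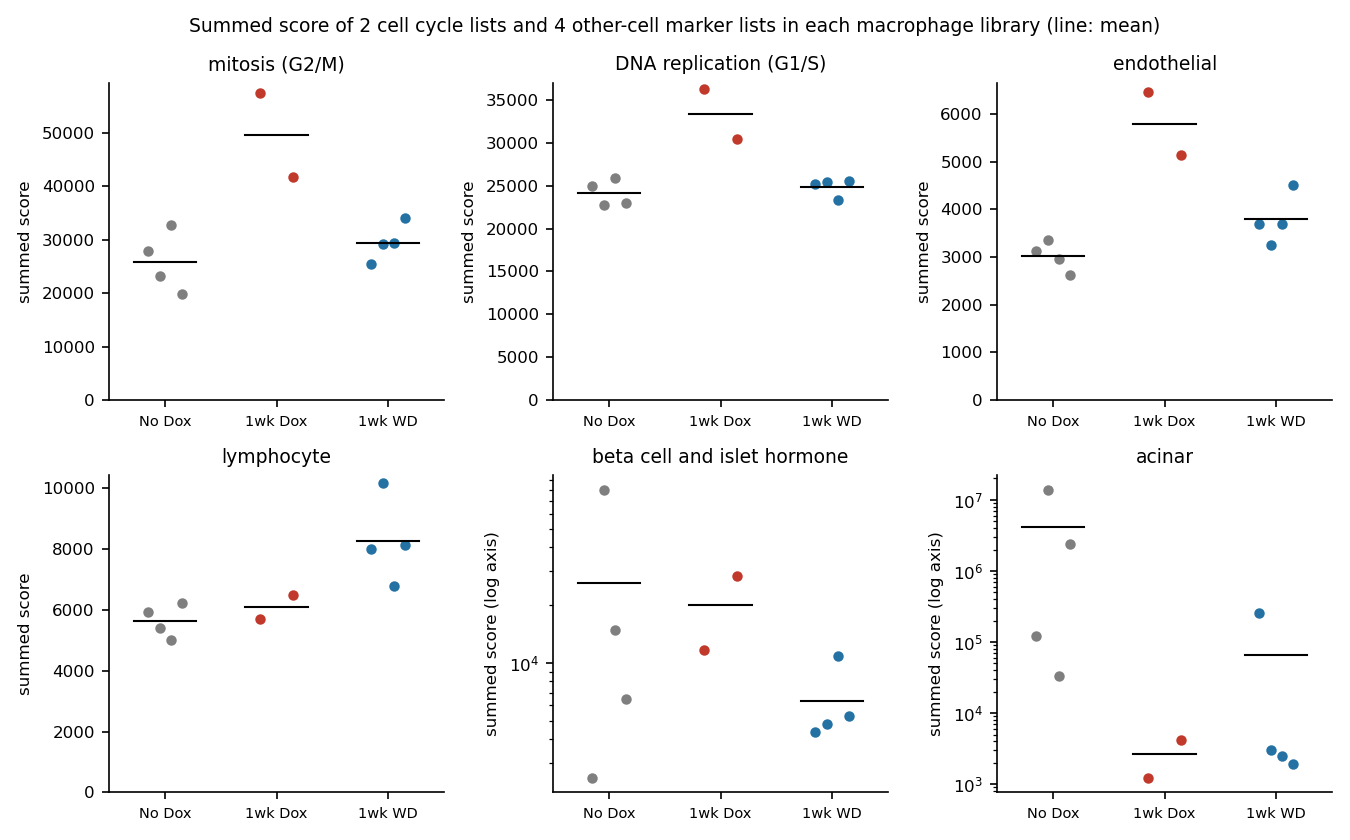
Summed scores of the mitosis and DNA replication lists and of the endothelial, lymphocyte, β cell and islet hormone, and acinar marker lists in each MΦ library (points) with group means (lines), the last 2 on log axes. Both cell cycle sums were highest in the 1wk Dox libraries, and the acinar sum of 1 library at 1wk WD was 252227 against 1935 to 3026 in the other 3.

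Lysosomal genes were mostly lower, and Fc receptor and complement genes less uniformly so, with no call in either list. Among 30 tested lysosome and V-ATPase genes, 13 (43.3%) were non-overlapping and lower and 0 higher, against 16.9% and 13.7% of all genes, with a median of -0.21 that was -0.13 without 1wk Dox replicate 4 and -0.32 without replicate 5. *Ctsb*, cathepsin B, scored 79830 and 60112 in 1wk Dox libraries against 36557, 45869, 38644, and 43370 in those of 1wk WD, a difference of -0.76 ± 0.17 (adjusted p = 0.144), and *Ctsd*, cathepsin D, scored 63408 and 52169 against 27541, 41343, 35203, and 46204. *Ctsb* remained above its No Dox range of 21499 to 26316 in all 4 libraries at 1wk WD. Of 21 tested Fc receptor and complement genes, 9 (42.9%) were lower and 1 higher among those that did not overlap (median -0.27, and -0.18 without 1wk WD replicate 1). Means were lower at 1wk WD for 13 of the 21 and higher for 8, against 7865 lower and 6710 higher over all genes tested. *C1qc* and *C1qb*, chains of the complement recognition protein C1q, scored 57424 and 46080 against 24565 to 28907 and 69084 and 54234 against 33321 to 37760, and *Fcer1g*, the signalling chain of Fc receptors, scored 46616 and 38464 against 23605 to 27542. *Serping1*, the C1 inhibitor, was the member higher at 1wk WD, with 158 and 156 against 199, 427, 424, and 277. *Msr1*, scavenger receptor A, scored 12354 and 11143 against 6692, 7410, 6579, and 9257. *Tfec*, a transcription factor of the lysosomal MiT family, scored 4312 and 2859 against 1223, 1480, 1358, and 2233 (-1.20 ± 0.39, limma, adjusted p = 0.324). *Tfec* had the largest change in a list of 28 tested MΦ transcription factors. Of these, 5 (17.9%) were non-overlapping and lower and 3 (10.7%) higher, against 16.9% and 13.7% of all genes, with a median of -0.03.

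In energy metabolism, 11 of 26 tested oxidative phosphorylation genes (42.3%) were non-overlapping and lower and 2 higher, against 16.9% and 13.7% of all genes, with a median of -0.32. That median was -0.14 without 1wk Dox replicate 4 and -0.50 without replicate 5. *Uqcrc1*, of respiratory complex III, scored 2212 and 1790 against 704, 1159, 1095, and 1140, whereas *Ndufa9*, of complex I, went the other way at 710 and 599 against 1227, 1261, 1071, and 980. *Eno1*, the glycolytic enzyme enolase, scored 3252 and 2928 against 1020, 1396, 1282, and 1533 (-1.25 ± 0.24, adjusted p = 0.0977). The glycolysis and hypoxia list was split, with 10 of 29 tested genes non-overlapping and lower and 6 higher (median -0.10, and -0.05 without 1wk Dox replicate 4). For interferon-stimulated genes the median over 30 tested was -0.20, with 7 (23.3%) lower and 2 higher, and it was -0.01 without 1wk Dox replicate 4 and -0.33 without replicate 5.

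The lists of MHC class II presentation and of immediate early genes had a median above 0, with no member called. Of 15 MHC class II presentation genes, 5 (33.3%) were non-overlapping and higher, against 13.7% of all genes, and 1 was lower, with a median of 0.23. The summed score of the list overlapped, at 1860008 and 1808473 in 1wk Dox libraries against 1688943, 1984919, 1777055, and 1822915 in those of 1wk WD. *H2-Aa*, the I-A α chain, scored 199399 and 150106 in 1wk Dox libraries against 244193, 323084, 303550, and 292645 in those of 1wk WD (0.74 ± 0.33, adjusted p = 0.477), and *H2-Ob*, a chain of the peptide-loading regulator H2-O, scored 2275 and 2339 against 3057, 3817, 4387, and 4056 (0.72 ± 0.17, adjusted p = 0.149). Of 24 immediate early genes, 6 (25.0%) were non-overlapping and higher and 1 lower (median 0.12, and 0.05 without 1wk WD replicate 2). *Ier5* scored 6798 and 6500 against 13632, 32062, 21805, and 15559, a difference of 1.56 ± 0.39 that did not pass (adjusted p = 0.192). *Irf4*, a transcription factor of MΦ and dendritic cell differentiation from the same list as *Tfec*, scored 5491 and 6031 against 7435, 8296, 10178, and 9819 (0.62 ± 0.17, limma, adjusted p = 0.233). *Il31ra*, a cytokine receptor chain, scored 287 and 242 against 3350, 1981, 1393, and 1425 (2.85 ± 0.74, limma, adjusted p = 0.202). *Il31ra* ranged from 382 to 5171 at No Dox.

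Markers of neutrophils, dendritic cells, and lymphocytes, which a CD11b+ gate can also hold, had medians above 0 as well, again with no call. Of 13 neutrophil markers 11 were tested, of which 4 (36.4%) were non-overlapping and higher and 1 lower, against 13.7% and 16.9% of all genes. Their median was 0.54, and 0.24 without 1wk WD replicate 1, and the summed score overlapped between groups, at 9145 and 8082 in 1wk Dox libraries against 15094, 11247, 9090, and 9758 in those of 1wk WD. Of 14 dendritic cell markers 5 (35.7%) were non-overlapping and higher and 1 lower (median 0.31, and 0.20 without 1wk Dox replicate 5), and their summed score was 124074 and 117245 in 1wk Dox libraries against 125474 to 150776 in those of 1wk WD. *Siglech*, of plasmacytoid dendritic cells, scored 1010 and 1091 against 2387, 1393, 1379, and 1526. Of 19 lymphocyte markers 15 reached the minimum score in both groups, of which 14 had a higher mean at 1wk WD and 4 (26.7%) did not overlap, with a median of 0.88. A further 3, *Cd3e* among them, reached it only at 1wk WD. Over the 18 the median was 1.01, and it was 0.32 without 1wk Dox replicate 4 and 1.43 without replicate 5. The summed score of the list was 5702 and 6499 in 1wk Dox libraries against 6791 to 10167 in those of 1wk WD. *Cd3e*, of T cells, scored 11 and 18 against 102, 28, 91, and 221, and *Igkc*, the immunoglobulin κ constant region, scored 297 and 136 against 856, 4408, 876, and 607. The part of these cells in the MHC class II values was not tested.

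Transcripts of islet and acinar cells were present in all 6 libraries. All 15 β cell and islet hormone markers had lower means at 1wk WD (median -1.71), with sums of 11663 and 28185 in 1wk Dox libraries against 4375 to 10914 in those of 1wk WD, and none was called. Of the 15, 4 reached the minimum score only at 1wk Dox, and over the other 11 the median was -1.82. *Gcg*, glucagon, scored 839 and 4328 against 295, 123, 988, and 214. Acinar enzyme markers, 15 of them, summed to 1223 and 4185 at 1wk Dox and to 252227, 3026, 2469, and 1935 at 1wk WD. They reached 13906093 and 2412390 in No Dox replicates 2 and 4. Without these 2 libraries and 1wk WD replicate 1, a choice made after seeing the data, 7 genes were called (5 lower and 2 higher), of which 4 were among the 13.

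**Figure D4:**
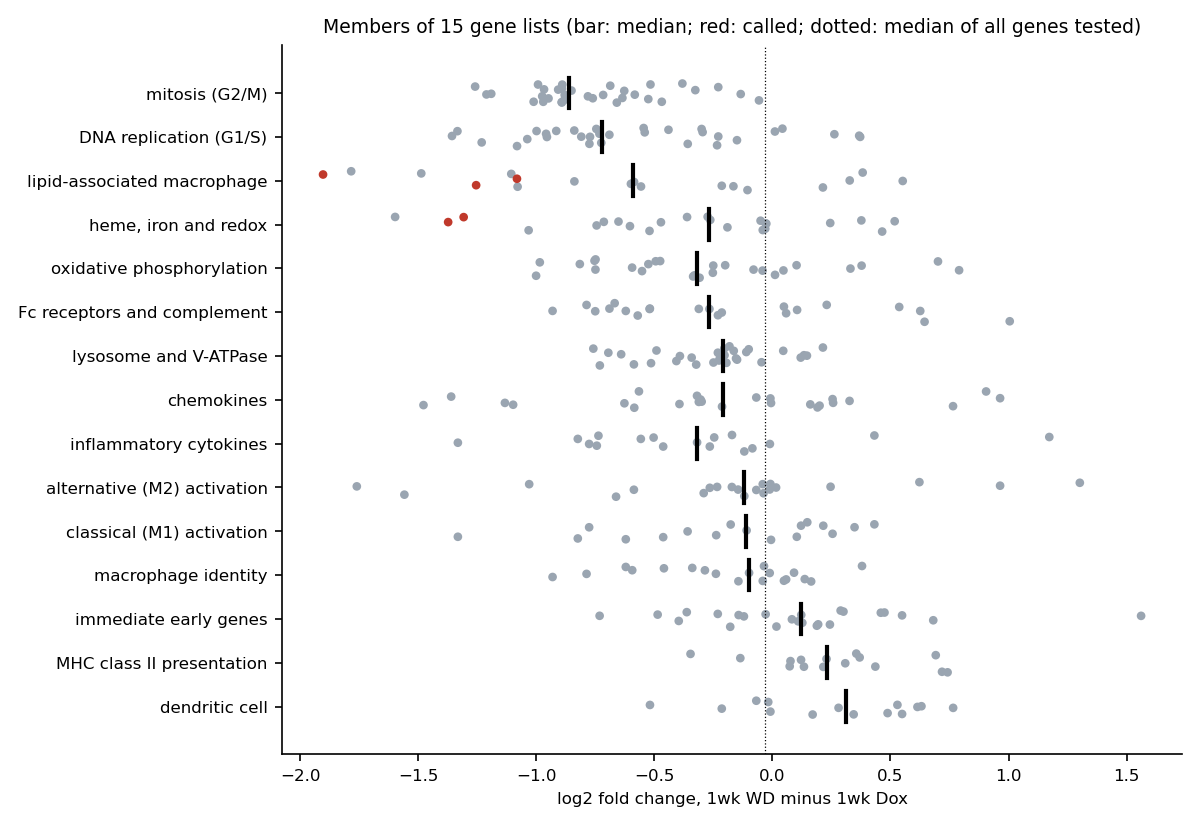
Log2 fold change (1wk WD minus 1wk Dox, x axis) of the tested members of 15 of the 37 gene lists (rows of points), namely 13 lists of MΦ functions, MΦ identity, and dendritic cell markers, with the list median as a black bar, called genes in red and the median of all 14575 genes as a dotted line. Medians are -0.86 for mitosis, -0.59 for lipid-associated MΦs, and 0.23 for MHC class II presentation, and the red points lie in the lipid-associated and heme, iron, and redox lists.

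Non-overlapping genes with a mean score of 100 or more that differed most with 1wk WD lower included *Emcn*, *Robo4*, *Plvap*, *Krt8*, *Nes*, *Fcna*, *Rad51ap1*, *Olfr112*, and *Olfr113*, and those that differed most with 1wk WD higher were *Arpp21*, *C7*, *Pou2af1*, *Il31ra*, *Tmem56*, *Igkc*, *Gm6316*, *Vwa3a*, *Dcn*, and *Cd28*, none of them called. *Arpp21*, *C7*, and *Pou2af1* had means under 20 at 1wk Dox and were tested only because of their scores at 1wk WD. *Pou2af1*, a B cell coactivator, scored 31 and 5 against 537, 162, 112, and 61, and *Dcn*, the stromal proteoglycan decorin, scored 75 and 197 against 267, 1174, 754, and 430. The pericyte and stromal list that holds *Dcn* was split, with 9 of 14 tested genes higher at 1wk WD and 5 lower by their means. Its median was 0.16, and -0.15 without 1wk Dox replicate 4. Its summed score overlapped, at 6330 and 8404 in 1wk Dox libraries against 3525 to 12419 in those of 1wk WD. A gene with the symbol *Zbtb20* (ENSMUSG00000036279) was listed at 1 in all 4 1wk WD libraries and at 468 and 852 at 1wk Dox. It lies inside a longer gene of the same symbol on the same strand, was above 1 in 3 of the 32 libraries of the series, and its value is uncertain.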

How the data were processed

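RNA was measured in cells sorted from dispersed islets, and MΦs were the CD11b+ cells. As the study's methods state, the authors amplified the RNA, sequenced it as paired-end 50 bp reads, aligned these to mm9 with TopHat 2.0 (the submitters' processing notes name TopHat2 2.0), and used the TMM algorithm of Avadis NGS for transcript abundance. What they deposited is a score per gene, a normalized value given as a whole number no lower than 1, and not a count. Read numbers cannot be recovered from the scores, so depth and the precision of a low score are unknown. The annotation version is not given in the sources used here. The deposited table holds 22850 genes and 38 columns of sample values, of which 6 belong to no sample analysed here and were not used. Date-like entries stood in place of 25 symbols, *March6* among them, and these were looked up again by gene identifier.

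Scores were taken as log2(score + 1) and modelled in R 4.3.3 with limma 3.58.1, using empirical Bayes moderation and a trend on mean expression, over the 10 MΦ samples with 1 coefficient per time point. No Dox samples entered the estimate of the spread because 1wk Dox had 2 samples. The test took genes whose mean score reached 20 at 1wk Dox or 1wk WD (14575), and 8275 were below the minimum in both. The scale understates fold changes of low genes. P-values are two-sided and adjusted by Benjamini-Hochberg over all genes tested, and a gene was called when it changed at least 2-fold with an adjusted p under 0.05. The z-score test of the study could not be repeated from its description. The study calls its samples biological replicates, each of pooled islets.

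The genes named came from a pool of 169. The pool held every called gene, the 10 largest rises and falls among non-overlapping genes (2-fold or more, unadjusted p under 0.05, mean score of 100 or more), the 4 members of each list with the largest change, and *Csf1r*, *Mrc1*, *Il12b*, *Il1a*, *Ptgs1*, *Retnla*, *Ccl2*, *Ccl7*, and *Ccr2*. Not every gene of the pool is printed, and no set rule fixed which list members are. *Mki67* and the overlapping genes *Ppib*, *Rfc4*, and *Mmp1b* were added later. Members and the 37 gene lists were chosen with earlier results of these data known. Lists were described by counts and medians and not tested. Alternatives changed the pseudocount (0.1 or 20), the filter, the scaling, the samples, the trend, or a replicate block. Gene overlaps came from GENCODE M1 (mm9), which holds 22799 of the identifiers.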

Additional observations from a re-analysis of the deposited data

Results flagged for a closer look

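In groups of 4 libraries, a library was singled out where its gap to the nearest other exceeded Dixon's 95% critical value as a share of the group's range. Of 132 groups examined 10 did so. The critical value gives 1 in 20 only for independent groups of normally distributed values. These groups share libraries and hold untransformed scores, so the rate expected by chance is not known.

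Replicate 1 at 1wk WD stood apart in its acinar enzyme transcripts, whose sum of 252227 compares with 1935 to 3026 in the other 3 libraries. The same library was the highest for *Siglech* (2387, against 1379 to 1526) and *Mmp1b* (29, against 4 and 5), and the lowest for *Uqcrc1* (704, against 1095 to 1159) and *Ppib* (1361, against 2917 to 3218). Replicate 2 at 1wk WD was the highest for *Igkc*, with 4408 against 607 to 876. Replicate 4 at 1wk WD was the highest for *Fcgr1* (4495, against 3832 to 3863) and for *Mrc1* (79570, against 70507 to 71880). The summed islet hormone and β cell markers of replicate 3 at 1wk WD were 10914, against 4375 to 5255 in the others, and those of No Dox replicate 2 were 79878, against 2511 to 14827. Without 1wk WD replicate 1 the number of called genes was 4.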

How the results depend on the processing

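The count of 13 called genes stayed within 1.5 times under pseudocounts of 0.1 and 20 (13 each), a minimum score of 20 at any of the 3 time points (13), a minimum of 200 (17), median-of-ratios scaling (11), quantile normalization (13), and no fold change threshold (15). Quantile normalization changed the split of genes at an unadjusted p under 0.05 to 201 higher and 149 lower, from 114 higher and 159 lower. The count was 4 with no filter, 79 with only the 6 samples compared, 0 with no trend of the spread (315 at the unadjusted p), 273 at the unadjusted p, and 7 without the 3 libraries with the most acinar transcript, a choice made after seeing the data. Leaving out 1 library gave 0 to 30 called genes. It gave 0 without replicate 4 or 5 at 1wk Dox or replicate 2 or 3 at 1wk WD, 4 without 1wk WD replicate 1, 8 without 1wk WD replicate 4, 5 without No Dox replicate 4, and 30 without No Dox replicate 3. The causes were not tested.

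With the replicate number as a block the count was 0 (201 at the unadjusted p, 3 residual degrees of freedom). Number 5 occurs only at 1wk Dox, so under this block the contrast rested on 1wk Dox replicate 4 alone. Deviations of same-numbered libraries from their group means correlated at -0.136 to 0.094. With groups of 2 or 4 libraries, such correlations cannot decide whether the samples were paired. Numbers here are those of the sample titles. The headings of the deposited table give the 2 libraries at 1wk Dox the numbers 5 and 6 in place of 4 and 5, which leaves them no number in common with the other groups, so a block by those numbers would not compare 1wk WD with 1wk Dox within a number.

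All 13 called genes kept their direction in each of the 21 other settings and kept their call in 147 of 273 pairs of gene and setting. In these settings reversals were limited to uncalled genes. Over the settings that left out 1 library, *Ccl7* ranged from -1.19 to 0.02 (without 1wk Dox replicate 4), *Mrc1* from -0.11 to 0.08, and *Ccr2* from -0.03 to 0.3. *Mrc1* was 0.24 under quantile normalization, 0 under median-of-ratios scaling and without the acinar-rich libraries. With 2 samples at 1wk Dox, the median SE of a log2 fold change over the genes tested was 0.29, and the smallest called change was 1.03.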
